A study of Mus musculus with 6 samples.

Results

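The 10 genes described here are 7 Toll-like receptor genes (Tlr1, Tlr2, Tlr3, Tlr4, Tlr6, Tlr7 and Tlr9), the genes of the co-receptor proteins CD14 and MD-2 (Cd14 and Ly96), and Myd88, the gene of the adaptor protein most of these receptors use. They were chosen by name, with no measured value in the rule, but with earlier results of these data known. They are 10 of the 20097 genes listed in the expression tables. Poly-A RNA was sequenced from mouse bone marrow cells that carry c-Kit, the receptor for stem cell factor and a surface marker of blood stem and progenitor cells. The cells came from 3 samples with the genotype label WT and 3 with the genotype label Runx1 KO, a knockout of the gene of the transcription factor RUNX1. How and when Runx1 was disrupted, and the strain, age, sex and treatment of the mice, are not given in the sources used here. Nothing states that the 3 samples of a group came from separate animals, so p-values measure only the spread between these samples, which may be technical.

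Toll-like receptors are membrane proteins that recognise molecules of microbes. Some work from the cell surface, for example on lipoproteins and lipopolysaccharide of bacteria, and others from the endosome, many of them on nucleic acids. Their intracellular TIR domains recruit adaptors, above all MyD88, whose kinases and ubiquitin ligases switch on NF-kB and interferon regulatory factors. The receptors are best known from macrophages, neutrophils, dendritic cells and B cells, but blood stem and progenitor cells carry some of them too.

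Values are normalised read counts, that is, reads per gene divided by 1 factor for each library, and changes are given as Runx1 KO relative to WT. If the smallest positive value of a file stands for 1 read, the libraries held from 23297526 to 26793380 reads. Tests used limma on log2(normalised read count + 1) over 15410 genes with enough signal, and a gene was called at a Benjamini-Hochberg adjusted p under 0.05. That rule called 21.9% of all tested genes, of which 48.4% were higher and the rest lower; with scaling by library totals 63.5% of the calls were higher. As a check on the labels, Runx1 was not lower but higher in the libraries labelled Runx1 KO, at 6648, 6720 and 5830 against 3031, 2799 and 3497 normalised reads. Values per gene cannot show whether part of the transcript was missing, so every direction below rests on the labels alone. Kit, the gene of the sorting marker, stood at 8301 ± 280 normalised reads under WT and 12649 ± 1093 under Runx1 KO (SD, n = 3).

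All 10 genes were listed and tested, and their changes were small or scattered between replicates. One receptor gene rose, Tlr6, and the adaptor gene Myd88 fell; the other 8 were not called. This is 2 of 10 genes (20%), close to the 21.9% of all tested genes, 10.6% higher and 11.3% lower. By sign, 3 of the 10 had a higher fitted value and 7 a lower one, with a median log2 change of -0.28 against -0.0042 over all tested genes. The groups did not overlap in 3 of the 10 genes, Tlr3, Tlr6 and Myd88, against 43.3% of all tested genes. At an unadjusted p under 0.05, limma found 4 of the 10 (Tlr2, Tlr3, Tlr6 and Myd88), against 37.7% of all tested genes. In bulk RNA, fewer cells of a type and less RNA per cell cannot be told apart.

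**Figure D1:**
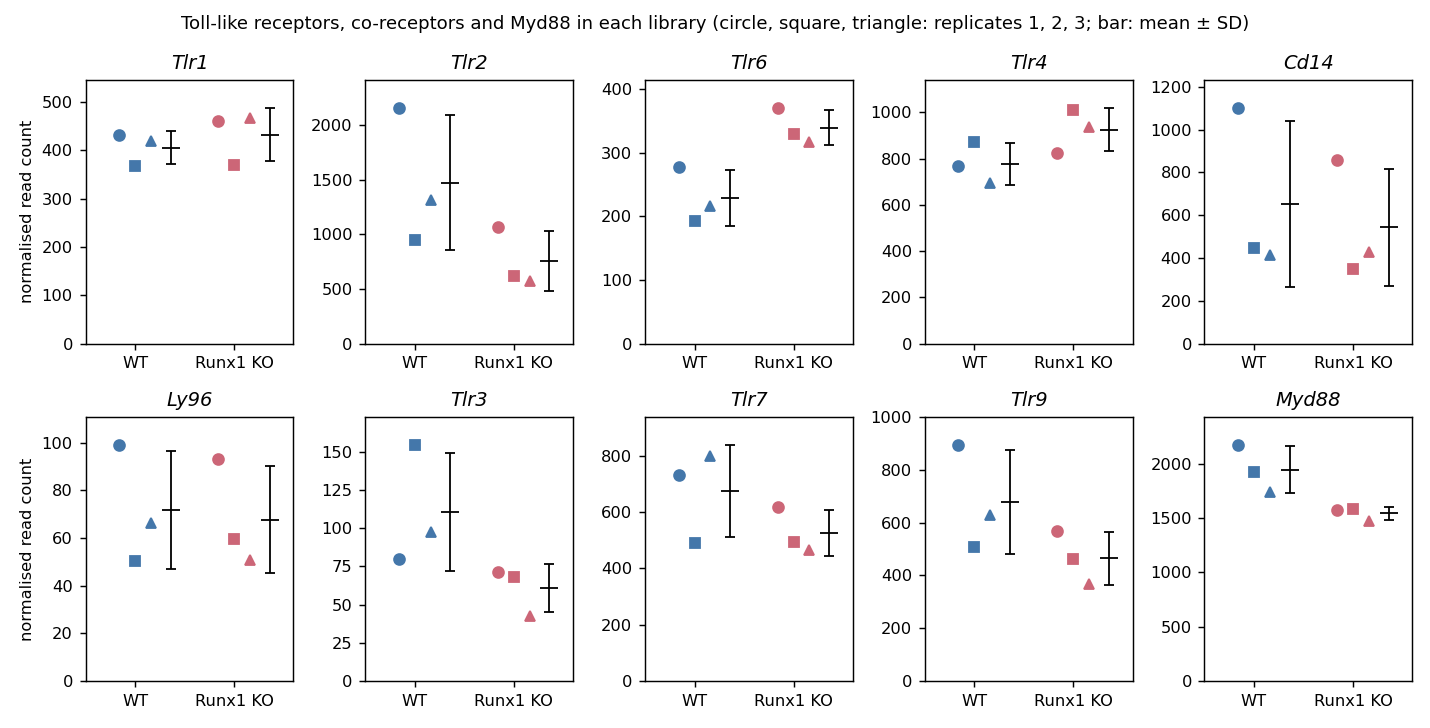
Normalised read count (linear axis from 0) of each of the 10 genes in the 3 libraries labelled WT (blue) and the 3 labelled Runx1 KO (red), with the mean and SD of each group in black. The red points lie above all blue points for Tlr6 and below them for Tlr3 and Myd88, while the circles of Cd14, replicate 1 of each group, stand at 1101 and 856 above the other libraries.

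Levels can be compared between genes only per length of transcript, here as normalised reads per kilobase of annotated exon. Under the label WT, Myd88 had the highest mean, at 754 ± 83.0 per kilobase, followed by Tlr2 (489 ± 206) and Cd14 (377 ± 224), all as mean ± SD of 3 libraries. Myd88 overlapped Tlr2, Tlr2 overlapped Cd14 and Cd14 overlapped Tlr9, so this order is not resolved. Tlr9, Tlr7, Tlr4 and Tlr1 followed, from 195 down to 121 per kilobase, each overlapping its neighbour in the order over the 3 libraries. Ly96 (70.4 ± 24.2) and Tlr6 (61.3 ± 11.7) overlapped each other and lay below Tlr1 without overlap. Tlr3 was the lowest, at 21.3 ± 7.45 per kilobase, and did not overlap Tlr6. Under the label Runx1 KO the same gene was highest, Myd88 at 598 ± 23.2 per kilobase, and the same gene lowest, Tlr3 at 11.7 ± 3.00. There Cd14 ranked above Tlr2, Tlr4 above Tlr9 and Tlr6 above Ly96, but each of these neighbours overlapped over the 3 libraries, so their order is not resolved.

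**Figure D2:**
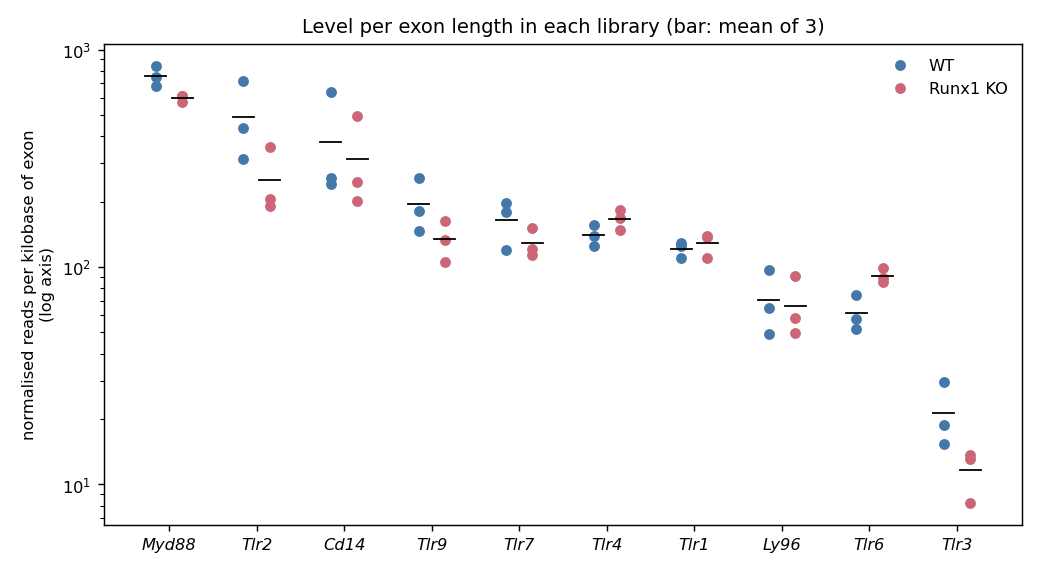
Normalised reads per kilobase of exon (log axis) of the 10 genes in each library, ordered by the WT mean, with WT in blue, Runx1 KO in red and the mean of 3 as a black bar. By mean, Myd88 stands at the top and Tlr3 at the bottom in both groups, Tlr3 at 21.3 per kilobase under WT and 11.7 under Runx1 KO.

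Tlr2, Tlr1 and Tlr6 form the receptors for bacterial lipoproteins, in which TLR2 pairs with TLR1 or with TLR6. Tlr6 (ENSMUSG00000051498; chromosome 5, 64952031 to 64960097, minus strand, GENCODE M21 on GRCm38) had 277, 193 and 216 normalised reads in WT replicates 1 to 3 and 370, 330 and 317 in Runx1 KO replicates 1 to 3. Every library labelled Runx1 KO was above every library labelled WT. The means differed 1.48-fold. On the log2 scale the rise was 0.58 (SE 0.16; limma adjusted p 0.0388). That call held in 1 of 6 fits on 5 libraries: it was kept without WT replicate 1 (limma adjusted p 0.0188) and lost without WT replicate 2 (0.0965), WT replicate 3 (0.0965), Runx1 KO replicate 1 (0.0835), replicate 2 (0.113) or replicate 3 (0.0851), with log2 changes from 0.47 to 0.73.

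Tlr1 lies beside Tlr6 on the same strand (ENSMUSG00000044827; chromosome 5, 64924679 to 64933563). It had 430, 367 and 418 normalised reads under WT and 461, 369 and 466 under Runx1 KO. The groups overlapped throughout, and the change was 0.09 on the log2 scale (95% interval -0.21 to 0.38). Tlr1 and Tlr6 are close copies: 14.8% of the 50-base stretches of the Tlr1 transcripts and 12.3% of those of Tlr6 stand in the transcripts of the other, and no other pair of the Toll-like receptor genes named here shared such a stretch. How reads from these stretches were shared out is not given in the sources used here. The split between both genes is therefore uncertain, by an amount that these shares do not measure. The difference between the changes of Tlr6 and Tlr1 was not tested.

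Tlr2, the common partner (ENSMUSG00000027995; chromosome 3, 83836272 to 83841767, minus strand), was more scattered than Tlr1 and Tlr6, with an SE of 0.34 on the log2 scale against 0.13 and 0.16. It had 2160, 947 and 1318 normalised reads in WT replicates 1 to 3 and 1070, 620 and 573 in Runx1 KO replicates 1 to 3. The highest library of each group was replicate 1, and Runx1 KO replicate 1 lay above WT replicate 2. The log2 change was -0.94 (SE 0.34; 95% interval -1.74 to -0.14), the lowest of the 10 genes, with a limma adjusted p of 0.0891. Without Runx1 KO replicate 1 it was -1.22 and passed (limma adjusted p 0.0379), and without both libraries numbered 1, an alternative chosen after seeing the data, it was -0.91 and passed too (limma adjusted p 0.0121).

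To show the regulatory sequence beside the receptor gene that rose, the bases before both Tlr6 start sites held by RefSeq are given 5′ to 3′ on the minus strand, outside annotated exons (GRCm38.p6). The motifs searched, on both strands, were TGTGGT, the core bound by RUNX proteins, and a pair of GAAA repeats with NN between them, the core of interferon response elements. Capitals mark matches. The first sequence lies before the outer start site, from -250 to -50 relative to it (chr5:64960098-64960298). The second lies before a start site further into the gene, from -250 to -1 (chr5:64959167-64959416).
Tlr6 outer start: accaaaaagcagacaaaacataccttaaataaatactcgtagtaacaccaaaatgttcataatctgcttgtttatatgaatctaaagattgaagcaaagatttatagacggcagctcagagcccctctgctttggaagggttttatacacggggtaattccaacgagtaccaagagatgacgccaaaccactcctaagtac
Tlr6 inner start: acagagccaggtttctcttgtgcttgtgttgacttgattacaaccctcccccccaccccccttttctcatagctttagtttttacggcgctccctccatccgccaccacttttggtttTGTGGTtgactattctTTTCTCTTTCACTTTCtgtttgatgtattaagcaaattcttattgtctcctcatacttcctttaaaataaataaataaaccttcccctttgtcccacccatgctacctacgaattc
The inner window held TGTGGT from -132 to -127 relative to its start site and a pair of overlapping matches to the paired GAAA repeat on the opposite strand, from -116 to -101. The outer window held neither. TGTGGT stood in 1 of the 8 windows of 300 bases available for 6 of the 10 genes, and in 16.8% of all 32851 RefSeq promoter windows. The paired GAAA repeat stood in 2 of the 8 windows and in 3.44% of all. A match describes the letters only, and which start site these cells used was not measured.

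TLR4 is the receptor for bacterial lipopolysaccharide, which CD14 passes on and which MD-2, the product of Ly96, holds on the receptor. Tlr4 (ENSMUSG00000039005; chromosome 4, 66827584 to 66930284, plus strand) had 768, 871 and 693 normalised reads under WT and 825, 1012 and 937 under Runx1 KO. Runx1 KO replicate 1 lay below WT replicate 2, and the other values under Runx1 KO were above all of those under WT. The log2 change was 0.25 (SE 0.11; 95% interval -0.02 to 0.52) with a limma adjusted p of 0.156.

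Cd14 (ENSMUSG00000051439, chromosome 18) had 1101, 445 and 415 normalised reads in WT replicates 1 to 3 and 856, 348 and 427 in Runx1 KO replicates 1 to 3. Replicate 1 of each group was high, at 2.56 and 2.21 times the mean of the other two libraries of its group, and the remaining 4 libraries lay together. The log2 change was -0.23 with a 95% interval from -1.30 to 0.85, so the data set only wide limits. Ly96 (ENSMUSG00000025779; chromosome 1, 16688051 to 16709611, plus strand) had 98.9, 50.5 and 66.2 normalised reads under WT and 93.1, 59.5 and 50.7 under Runx1 KO. Here too replicate 1 was the highest of each group, at 1.70 and 1.69 times the mean of the other two, and the log2 change was -0.08 (95% interval -0.84 to 0.68). Without WT replicate 1 the sign turned for Cd14 (0.23) and for Ly96 (0.18), with limma adjusted p values of 0.695 and 0.722. It also turned without Runx1 KO replicate 2 for Cd14 (0.04), and without Runx1 KO replicate 3 (0.10) and under scaling by library totals (0.0040) for Ly96.

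Tlr3, Tlr7 and Tlr9 encode endosomal receptors for double-stranded RNA, single-stranded RNA and DNA rich in unmethylated CpG. Tlr3 (ENSMUSG00000031639; chromosome 8, 45395665 to 45411080, minus strand), which signals through the adaptor TRIF and not through MyD88, had 80.1, 154 and 97.8 normalised reads under WT and 71.1, 68.4 and 42.8 under Runx1 KO. The groups did not overlap, but WT replicate 1 and Runx1 KO replicate 1 lay close together. The log2 change was -0.84 (SE 0.31; 95% interval -1.56 to -0.11) and was not called (limma adjusted p 0.0927). An antisense gene, Gm45542, covers 7.32% of the exon bases of Tlr3; it is not listed, and whether counting used the strand is not given in the sources used here.

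Tlr7 (ENSMUSG00000044583; chromosome X, 167304929 to 167330558, minus strand) had 731, 489 and 801 normalised reads under WT and 617, 495 and 464 under Runx1 KO. The groups overlapped, WT replicate 2 lying among the libraries labelled Runx1 KO, and the log2 change was -0.34 (95% interval -0.81 to 0.14; limma adjusted p 0.263). Tlr9 (ENSMUSG00000045322; chromosome 9, 106222598 to 106226883, plus strand) had 893, 508 and 630 normalised reads under WT and 567, 463 and 367 under Runx1 KO. Runx1 KO replicate 1 exceeded WT replicate 2, and the log2 change was -0.52 (95% interval -1.08 to 0.03; limma adjusted p 0.152).

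Myd88 (ENSMUSG00000032508; chromosome 9, 119335934 to 119341411, minus strand) encodes the adaptor shared by the receptors other than TLR3 and by the IL-1 receptor family. It had 2168, 1920 and 1742 normalised reads in WT replicates 1 to 3 and 1569, 1583 and 1473 in Runx1 KO replicates 1 to 3. All libraries labelled Runx1 KO lay below all those labelled WT. The fall was small and even: the mean under Runx1 KO was 0.793 times that under WT, and the gene fell by 0.33 on the log2 scale (SE 0.09; limma adjusted p 0.0401). It was kept without WT replicate 3 (limma adjusted p 0.0304) and lost without WT replicate 1 (0.0730), WT replicate 2 (0.0940), Runx1 KO replicate 1 (0.0600), replicate 2 (0.106) or replicate 3 (0.129), without both libraries numbered 1 (0.0624) and with scaling by library totals (0.0562), with log2 changes from -0.40 to -0.25 over these fits. Exons of Acaa1a on the opposite strand cover 11.3% of the exon bases of Myd88; that gene had 1211 ± 106 and 1101 ± 96.0 normalised reads (SD, n = 3) and was not called.

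The bases before the Myd88 start site of RefSeq are shown because it was the other gene called (chr9:119340042-119340268, minus strand, 5′ to 3′, GRCm38.p6, inside the annotated gene but outside its exons). Capitals mark the match to the paired GAAA repeat.
Myd88 start: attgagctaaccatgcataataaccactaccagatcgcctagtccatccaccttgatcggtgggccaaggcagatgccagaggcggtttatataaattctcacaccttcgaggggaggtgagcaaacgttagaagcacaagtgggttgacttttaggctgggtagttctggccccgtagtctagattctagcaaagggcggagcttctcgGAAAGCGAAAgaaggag
The printed bases run from -250 to -24 relative to the RefSeq start site, and this match lay from -40 to -31. TGTGGT was not among the letters of this window.

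**Figure D3:**
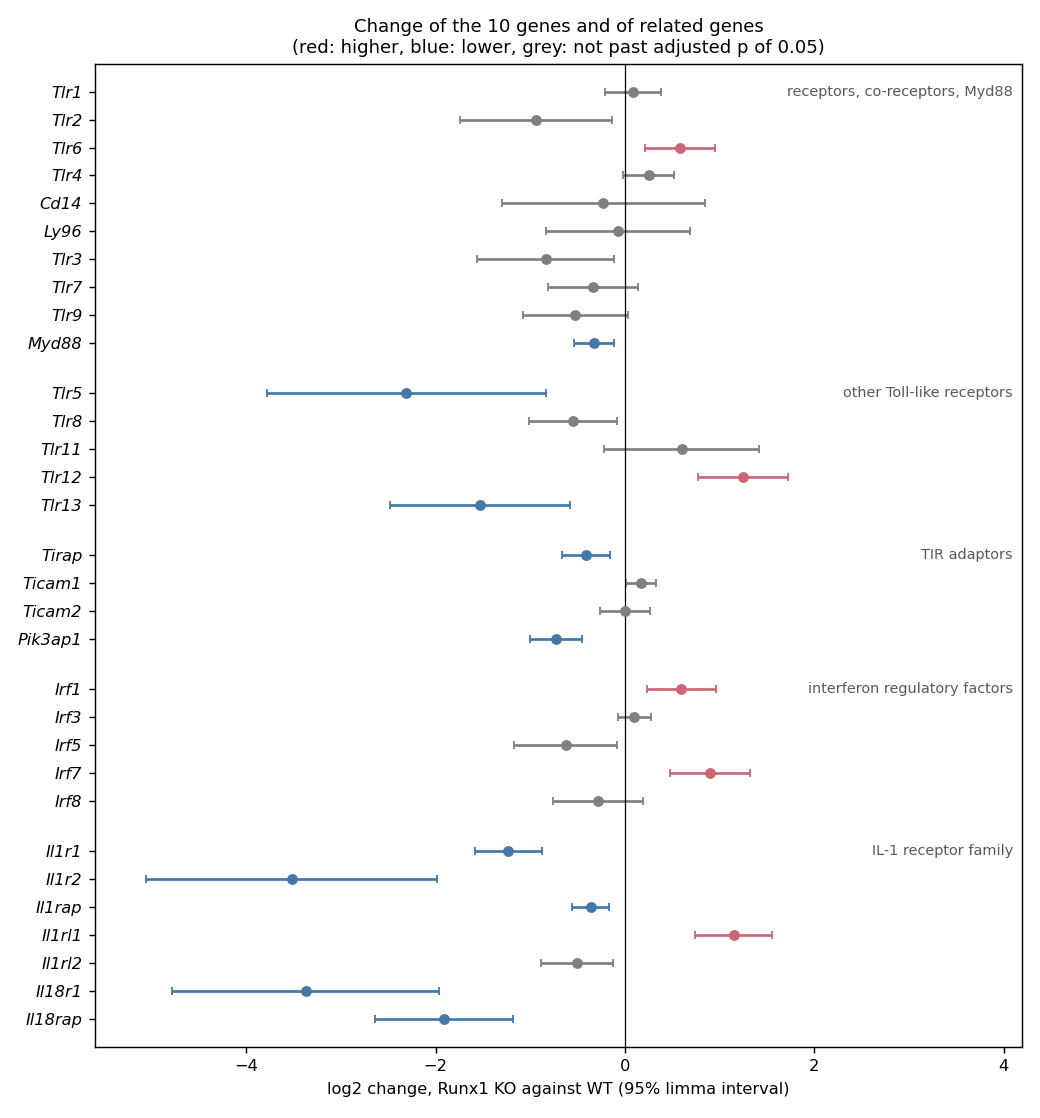
Log2 change from WT to Runx1 KO with its 95% limma interval for the 10 genes and for 4 lists of related genes, coloured by the call. Among the 10 genes the coloured points are Tlr6 (0.58) and Myd88 (-0.33). Intervals reach further from 0 in the IL-1 receptor family, down to -5.06 for Il1r2, whose log2 change is -3.52.

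The receptors outside the 10 genes moved in both directions. Of 5 such genes, all tested, Tlr12 rose, Tlr5 and Tlr13 fell, and Tlr8 and Tlr11 were not called, against 21.9% called of all tested genes. Tlr12, which with TLR11 recognises profilin of protozoa, had 92.0, 139 and 94.0 normalised reads under WT and 270, 279 and 217 under Runx1 KO, a log2 change of 1.25 (SE 0.20; limma adjusted p 0.00779). Its groups lay far apart, and the call was kept in all 6 fits on 5 libraries. Tlr5, the flagellin receptor, had 206, 47.4 and 57.6 against 30.3, 10.9 and 11.9 normalised reads, a log2 change of -2.31 (SE 0.62; limma adjusted p 0.0394). Tlr13, a receptor for bacterial ribosomal RNA, had 2142, 771 and 1311 against 691, 375 and 344, a log2 change of -1.53 (SE 0.40; limma adjusted p 0.0365). Both were highest in replicate 1 of each group. The call of Tlr5 was kept only without Runx1 KO replicate 1 (limma adjusted p up to 0.129 in the other fits), and that of Tlr13 only without that library or WT replicate 2 (up to 0.121). Tlr8, an endosomal receptor related to TLR7, had a log2 change of -0.55 and Tlr11 of 0.60. Tlr8 passed without Runx1 KO replicate 1 (limma adjusted p 0.0468) and without both libraries numbered 1 (0.0307).

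Of the 5 adaptor genes beside Myd88, 4 were tested and 2 fell, against 11.3% lower among all tested genes: Pik3ap1, which links the receptors to PI3-kinase, by 0.73 on the log2 scale (SE 0.12; limma adjusted p 0.00766), and Tirap, which brings MyD88 to TLR2 and TLR4, by 0.41 (SE 0.11; limma adjusted p 0.0348). Pik3ap1 had 3962, 3079 and 3255 normalised reads under WT and 2187, 2190 and 1817 under Runx1 KO, with a wide gap between the groups. Tirap had 961, 847 and 735 under WT and 636, 643 and 619 under Runx1 KO, again without overlap, but its call was kept in 1 of the 6 fits with a library left out, without WT replicate 3. The adaptors of the TRIF pathway were not called, Ticam1 at a log2 change of 0.17 (95% interval 0.0069 to 0.33) and Ticam2 at -0.0013 (95% interval -0.26 to 0.26). Sarm1, at 8.37 normalised reads or fewer, did not enter the tests.

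Among 10 partners and processing proteins of the receptors, 3 fell, 0 rose and 7 were not called, against 21.9% called of all tested genes. Cd36, a scavenger receptor that assists TLR2, fell by 1.33 on the log2 scale (SE 0.31; limma adjusted p 0.0250), from 757 ± 149 to 316 ± 141 normalised reads (SD, n = 3). Lgmn and Ctsb, endosomal proteases, fell by 0.58 and 0.29. The call of Cd36 was lost in 4, that of Ctsb in 4 and that of Lgmn in 3 of the 6 fits with a library left out. Unc93b1, which carries the endosomal receptors to their compartment and is named here for that role, had a log2 change of -0.17 (limma adjusted p 0.415).

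Among the shared kinases and ubiquitin ligases between adaptor and NF-kB, 0 of 21 genes, all tested, passed a limma adjusted p of 0.05, against 21.9% of all tested genes, while 4 of the 21 had an unadjusted p under 0.05, against 37.7% of all. Their median log2 change was -0.02. The list includes, named here for their roles, the IRAK kinases Irak1, Irak2 and Irak4, the ligase gene Traf6, and the kinase genes Map3k7, Chuk and Ikbkb. Scaling by library totals gave 2 of the 21, beside 3755 of all 15410 tested genes. Leaving out Runx1 KO replicate 1 gave 1 of the 21, beside 3551 of all. No other tool was run.

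Of the 12 negative regulators, 4 fell, 2 rose and 6 were not called, against 21.9% called of all tested genes. Irak3, which encodes an inactive kinase that holds back MyD88 signalling, fell from 2316 ± 158 to 1503 ± 95.6 normalised reads (SD, n = 3), or by 0.62 on the log2 scale (SE 0.08; limma adjusted p 0.00358), and kept its call in all 6 fits with a library left out. Tnfaip3 and Nfkbia, feedback inhibitors that NF-kB itself switches on, fell by 1.75 (SE 0.41; limma adjusted p 0.0247) and 1.13 (SE 0.31; limma adjusted p 0.0424) on the log2 scale. Tnfaip3 had 9806, 4653 and 4224 normalised reads under WT and 2898, 1309 and 1339 under Runx1 KO, so replicate 1 of each group was again the highest. Its call was lost in 3 and that of Nfkbia in 5 of the 6 fits with a library left out. Sigirr, an inhibitory member of the receptor family, rose by 0.48 (SE 0.10; limma adjusted p 0.0191), a call lost without Runx1 KO replicate 2 (0.0597) or WT replicate 2 (0.0542).

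The signalling receptors of the IL-1 family carry a TIR domain and use the same adaptor, MyD88. Of 7 genes, all tested, 5 fell, 1 rose and 1 was not called, against 21.9% called of all tested genes, 10.6% higher and 11.3% lower. Their median log2 change was -1.23 against -0.0042 over all tested genes. Il1r2, a decoy receptor, had 1352, 455 and 378 normalised reads under WT and 128, 30.7 and 36.8 under Runx1 KO, a log2 change of -3.52 (SE 0.65; limma adjusted p 0.0118). Il18r1, the ligand-binding chain of the IL-18 receptor, had 368, 222 and 129 against 48.1, 16.8 and 9.95, a log2 change of -3.37 (SE 0.60; limma adjusted p 0.0103). In both genes all values under Runx1 KO lay below all values under WT. Il18rap, the second chain of that receptor, fell by 1.91 (SE 0.31; limma adjusted p 0.00776) and Il1r1, the signalling receptor for IL-1, by 1.23 (SE 0.15; limma adjusted p 0.00331) on the log2 scale. These 4 genes kept their call in all 6 fits with a library left out. The gene that rose, named after its values were seen, was Il1rl1, the receptor for IL-33, at 533, 673 and 632 against 1091, 1325 and 1722 normalised reads (log2 change 1.15, SE 0.17; limma adjusted p 0.00618).

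Of 5 interferon regulatory factors, all tested, 2 rose and 0 fell, against 21.9% called of all tested genes. Irf7 rose by 0.90 (SE 0.18; limma adjusted p 0.0148) and Irf1 by 0.60 (SE 0.15; limma adjusted p 0.0342) on the log2 scale, while Irf3 (0.10), Irf5 (-0.63) and Irf8 (-0.28) were not called. Irf7 had 1026, 702 and 694 normalised reads under WT and 1683, 1565 and 1246 under Runx1 KO, with no overlap. Its call was lost in 2 and that of Irf1 in 4 of the 6 fits with a library left out, and Irf5 and Irf8 passed without Runx1 KO replicate 1 (limma adjusted p 0.0122 and 0.0173). Beside them, 7 of 10 interferon-stimulated genes used as markers rose and 0 fell, against 10.6% higher and 11.3% lower among all tested genes. Their summed level ran from 4149 to 4840 normalised reads under WT and from 10325 to 14540 under Runx1 KO. None of these genes was at 0 in any library, and their part in these changes was not tested.

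Of 17 genes that Toll-like receptor signals are known to induce, 13 were tested, 1 rose and 1 fell, against 21.9% called of all tested genes. Their median log2 change was -0.58 against -0.0042 over all tested genes. Without Runx1 KO replicate 1, 6 of the 13 were called, beside 3551 of all 15410 tested genes. With the replicate block, or without both libraries numbered 1, 6 were called too, beside 3843 and 3752 of all. Every other fit with 1 library left out called 1 or 2 of the 13. Il6 had 49.5, 26.2 and 56.6 normalised reads under WT and 1.05, 0.991 and 0.995 under Runx1 KO, where each value is the smallest positive one of its file. It entered the tests only through the libraries labelled WT, where it is high, and was not tested when a mean CPM of 1 was required. Its log2 change ran from -4.81 to -2.97 with the pseudocount, so its size is not resolved. Cxcl10, a chemokine that interferons induce, rose by 1.13 (SE 0.26; limma adjusted p 0.0242), a call lost in 4 of the 6 fits with a library left out. Over all 8 lists, 77 of 82 genes were tested, 7 rose and 17 fell, a share of called genes to be read against the 21.9% of all tested genes.

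Part of the scatter of the 10 genes was shared between libraries. Replicate 1 was the highest library of its group for 7 of the 10 genes under WT and for 7 under Runx1 KO, and in both groups for Tlr2, Tlr6, Tlr9, Cd14 and Ly96. Over all tested genes, the libraries numbered 1 deviated from their group means with a correlation of 0.287. How many of all tested genes were highest in replicate 1 was not counted, so these counts cannot be called particular to the 10 genes. Markers of other blood cells also differed between libraries. The counts of marker genes that rose or fell, here and below, stand against 10.6% higher and 11.3% lower among all tested genes. The summed level of 10 neutrophil genes was 257697, 185440 and 157036 normalised reads in WT replicates 1 to 3 and 86018, 33455 and 29591 in Runx1 KO replicates 1 to 3, and 6 of the 10 fell. The 8 B-lymphoid genes summed to between 6922 and 28237 under WT, highest in replicate 1, and to between 1129 and 2946 under Runx1 KO, again highest in replicate 1, and 6 of the 8 fell. The 9 monocyte genes summed to between 46910 and 60813 under WT and between 42384 and 56640 under Runx1 KO. Their sum was highest in replicate 1 of both groups, and 1 gene was called higher and 3 lower. The 7 macrophage genes summed to between 13877 and 20420 and between 12787 and 16466, with 2 lower. Their sum was lowest in WT replicate 1 and in Runx1 KO replicate 2.

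No gene of the neutrophil, B-lymphoid, monocyte and macrophage lists was at 0 in any library. Of 8 plasmacytoid dendritic genes, 1 rose and 2 fell. Their sums ran from 5464 to 6460 under WT and from 5446 to 7366 under Runx1 KO. Tcf4, Runx2 and Bst2 made up most of these sums, at 2035, 1841 and 1309 normalised reads on average under WT. Under Runx1 KO they stood at 1832, 2659 and 1630. The median log2 change of the 8 genes was -1.77. Klk1 and Cox6a2 were the genes called lower. Klk1 had 38.7, 3.96 and 0 normalised reads in Runx1 KO replicates 1 to 3, and Cox6a2 had 40.8, 7.93 and 13.9. Both passed the filter for testing only with the help of the libraries labelled WT, where they are high. Of 6 conventional dendritic genes 0 passed a limma adjusted p of 0.05, against 21.9% of all tested genes. An unadjusted limma p under 0.05 was found for 2, against 37.7% of all. The 6 genes summed to between 2172 and 2352 under WT and between 1401 and 2340 under Runx1 KO. Of 7 basophil and mast cell genes 4 fell, with sums from 12306 to 16815 and from 9736 to 12129. The largest term of both sums was Hdc, at 6503 and 8021 normalised reads on average, which was not called. Prss34 and Fcer1a, both called lower, had at most 5.23 normalised reads under Runx1 KO. They entered the tests only through the libraries labelled WT, where they are high. Of 8 T and NK genes 1 fell, Nkg7, with sums from 6575 to 7554 and from 4525 to 4837. Nkg7 made up most of these sums, at 5840 and 4125 on average. Without Runx1 KO replicate 1, 7 of the 8 were called, beside 3551 of all 15410 tested genes. Every other fit with 1 library left out called 1 of the 8, beside 1349 to 2494 of all. The stem and progenitor list rose in 6 of 9 genes, against 10.6% of all tested genes, with sums from 18762 to 21877 and from 28148 to 32525. Whether these cells account for any change of the 10 genes was not tested.

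**Figure D4:**
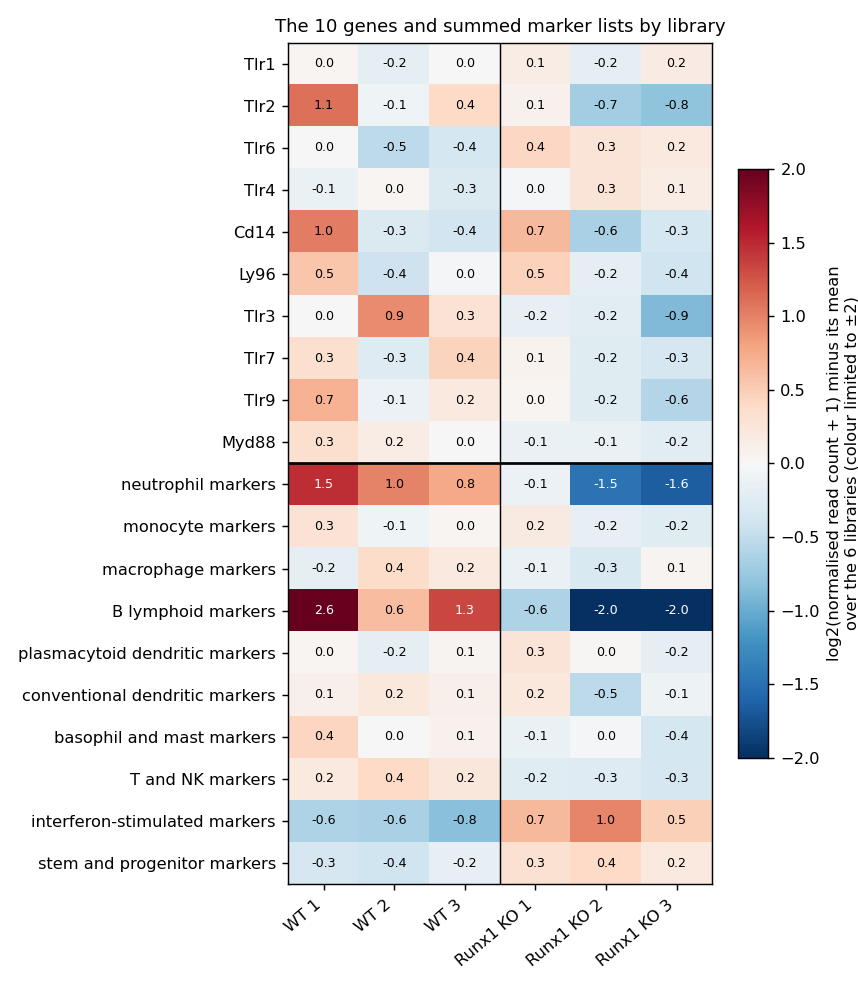
Each row gives log2(normalised read count + 1) minus its mean over the 6 libraries, for the 10 genes (above the line) and for the summed level of 10 marker lists (below it), with WT libraries left of the vertical line. Tlr2 and Cd14 are highest in WT replicate 1, where the neutrophil, B-lymphoid, monocyte and basophil and mast cell sums are highest too. Among the WT libraries the macrophage and the T and NK sums are lowest there. Tlr4, Tlr1 and Myd88 stay within 0.33 of their means in every library. Myd88 is above its mean in all WT libraries and below it in all Runx1 KO libraries.

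Genes whose pattern over the 6 libraries was most like that of the receptor gene with the highest and the lowest log2 change were looked up among 12269 tested genes with a mean of at least 50 normalised reads, as a description. For Tlr6 they were B3gnt2, Taf8 and Trim30d, with Pearson's r of 0.999, 0.999 and 0.998 over 6 libraries. For Tlr2 they were Sorcs2, Gfra1 and Fosl2, with r of 0.999, 0.998 and 0.998. Fosl2, which encodes a subunit of the AP-1 transcription factor, had 3503, 1471 and 1933 normalised reads under WT and 1612, 830 and 756 under Runx1 KO, with the same order of libraries as Tlr2. Among so many genes and so few libraries, such values arise for many profiles.

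**Figure D5:**
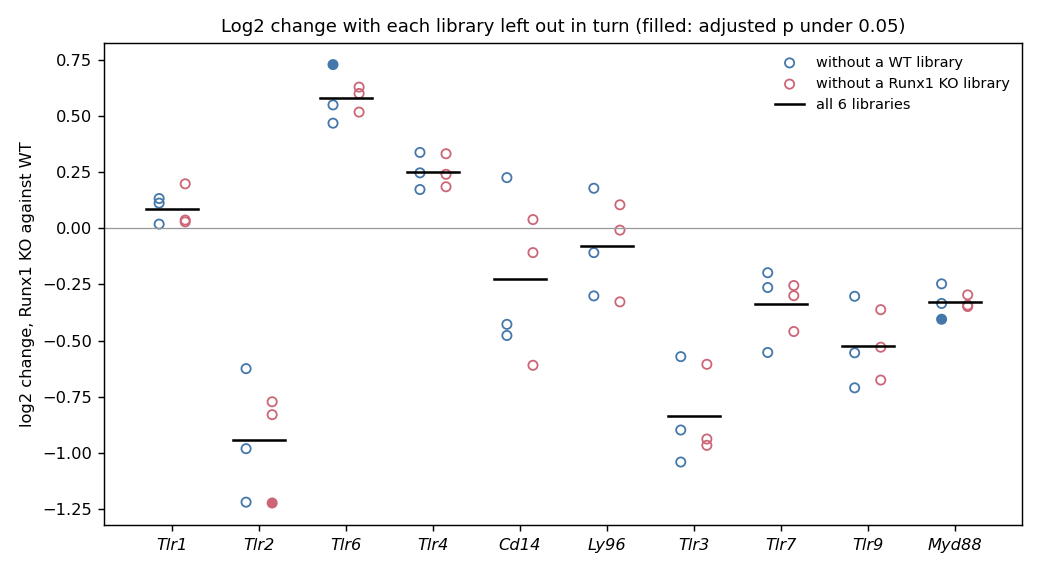
Log2 change of each of the 10 genes with all 6 libraries (black bar) and with each library left out in turn (blue without a WT library, red without a Runx1 KO library; filled where the limma adjusted p is under 0.05). Tlr1, Tlr4 and Tlr6 stay above 0 and Tlr2, Tlr3, Tlr7, Tlr9 and Myd88 below it in every such fit, while Cd14 and Ly96 fall on both sides.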

How the data were processed

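Per the submitters' processing notes, HISAT2 and HTSeq 0.9.1 were used with mm10 and GRCm38, with no role or order stated. The deposited values form a signal: reads per gene divided by a factor for each library, as read from the values and not stated in the file headers. In each of the 6 files 100% of values were whole multiples of the smallest positive value (tolerance 0.001). Genes with under 10 such multiples over the 6 libraries are not listed. No count test was run, since the unit was not settled for all files.

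Symbols came from a table of Ensembl identifiers (20077 of 20097 matched), positions and exon lengths from GENCODE M21 (20090 matched), and promoter windows from RefSeq on GRCm38.p6 (6 of the 10 genes). Genes entered the tests when at least 3 libraries reached the CPM that equals 10 reads in the median library and the total was at least 15. limma 3.58.1 in R 4.3.3 (lmFit, eBayes with trend) was fitted to log2(value + 1), two-sided, with Benjamini-Hochberg adjustment over 15410 genes; this scale understates changes of low genes. The script was tested on simulated data. With 3 against 3 an exact permutation test cannot go below 0.1, so none was made.

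The 10 genes, gene lists and motifs were chosen with earlier results of these data known. Named were the 10 genes, Runx1 and every gene of lists of 5 or fewer. Up to 4 called genes with the largest change were named per longer list. So were the 3 genes most like the highest and lowest of the 10. Unc93b1, 7 genes of the kinase list, Il1rl1, Kit and genes at 0 or overlapping a member were named beside this rule. Some marker genes were named after their values were seen. Alternatives were scaling by a trimmed mean of log ratios (TMM) or by library totals, pseudocounts of 0.5 and 5, no low-value filter, keeping genes from a mean CPM of 1 up, the replicate number as a block, each library left out, and both libraries numbered 1 left out.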

Additional observations from a re-analysis of the deposited data

How the results depend on the processing

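With all 6 libraries, 66 of the 70 values of the 10 genes kept their direction and their side of the threshold. Scaling by library totals, which moves the median of all genes from -0.0042 to 0.08, left 1 of the 10 genes called (Tlr6), and turned the sign of the log2 change of Ly96 (0.0040) and of Ticam2 (0.081). The replicate numbers were not taken to pair the samples: same-numbered libraries deviated from their group means with correlations of 0.287, 0.129 and -0.0104, and 2 of 3 Runx1 KO libraries and 1 of 3 WT libraries correlated best with their own number. With the replicate block 4 of the 10 genes were called, Tlr2 and Tlr9 beside Tlr6 and Myd88, against 2 without it, 34 pathway genes against 24, and 3843 tested genes against 3370; 2 of the 21 kinase and ligase genes, Tlr8 (limma adjusted p 0.0101) and Irf5 (0.00854) then passed too. Leaving out a library in turn gave 0 to 1 of the 10 genes, 9 to 34 pathway genes and 1349 to 3551 tested genes, fewest without Runx1 KO replicate 2. In 3 of these fits, without Runx1 KO replicate 2, Runx1 KO replicate 3 or WT replicate 2, 0 of the 10 were called. There a limma unadjusted p under 0.05 was found for 3, 2 and 6 of them. With all 6 libraries 37.7% of all tested genes had such a p, a share not given for these 3 fits. Limma was the only tool. Over the 6 fits with a library left out, the log2 change ran from -0.61 to 0.23 for Cd14 (0.04 without Runx1 KO replicate 2) and from -0.33 to 0.18 for Ly96 (0.10 without Runx1 KO replicate 3). For Ticam2 it ran from -0.10 to 0.069, highest without Runx1 KO replicate 3 (0.03 without Runx1 KO replicate 2 and 0.05 without WT replicate 1). The cause was not tested. Without both libraries numbered 1, added after seeing the data, 2 of the 10 genes (Tlr2 and Tlr6), 33 pathway genes and 3752 tested genes were called. The planned edgeR and DESeq2 fits were not run. Differences under the intervals given could not be seen at this number of libraries.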
